A study of Homo sapiens with 9 samples.

Results

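FAM120A and IGF2BP2 were compared on the messenger RNAs (mRNAs) of K562 cells, a human erythroleukaemia line, in 3 samples of antibody-barcode eCLIP (ABC). Each sample was 1 pool of 10 antibodies in untreated, UV-crosslinked cells, so that the FAM120A and IGF2BP2 libraries of a sample came from 1 lysate and 1 tube and were compared within it, 6 libraries in all. These 3 samples are among the 9 of the series. The labels of replicate 3 write the cell line as K563 in 2 fields and as K562 in the title. All 10 of the erythroid genes used as markers of K562 cells held a peak in each of the 3 samples. Peaks of any of the 10 antibodies and in any part of the gene, introns included, were counted. Whether these genes hold peaks in other cells was not tested. Of 19230 annotated 3′ untranslated regions (3′ UTRs), 3877, 4533 and 3950 were bound by FAM120A, IGF2BP2 or both in replicates 1, 2 and 3.

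In ABC, antibodies are tagged with DNA oligonucleotides that are joined to nearby RNA on the beads, and the tag read out with the RNA shows which protein held it. FAM120A is a scaffold-like RNA-binding protein known from Src kinase signalling under oxidative stress. IGF2BP2 belongs to the oncofetal IGF2 mRNA-binding proteins, which contact RNA through KH and RRM domains and are known for holding mRNAs in granules and for acting on their stability, localisation and translation. The 3′ UTR follows the stop codon of an mRNA and is where many such proteins bind.

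A peak was counted as enriched with a P below 0.001 and a fold above 8 over an external RNA-seq background, and touching enriched peaks were joined into 1 site. The study used the same P and fold limits, but for pooled samples mainly over the reads of the other proteins in the pool. The paper proposes that this choice handles background better than RNA-seq, and it was not used here. The study also removed all peaks that overlap annotated repeats, a step not taken here. The sum of peak reads ran from 651651 to 1600972 in the FAM120A libraries and from 151422 to 405962 in the IGF2BP2 libraries, with touching peaks counted once. At most 1 background read was found in 97.5% to 98.7% of the merged peaks. At these peaks the limits act on the number of reads, and with 1 background read the fewest reads of an enriched peak were 4, 10 and 4 for FAM120A and 6, 7 and 9 for IGF2BP2. A 3′ UTR without a called peak counts as 0, although reads too few for a peak may lie there. Peak reads were more for FAM120A in each sample, and the part of depth in the numbers of bound 3′ UTRs was not tested.

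The sites below are examples of the sequence each protein held, picked by rank and not for being typical. They are the first 4 genes, by the difference in reads, for FAM120A and for IGF2BP2, and the first 4 by level for both proteins at 1 shared site. Each is 30 nt around the site's centre on the RNA strand of GRCh38, and the same site was enriched in all 3 samples. Capitals mark stretches that belong to the 25 5-mers most in favour of FAM120A (sites shown for FAM120A), of IGF2BP2 (sites shown for IGF2BP2) or of either (shared sites).
SPTY2D1, FAM120A, minus strand, chr11:18608835-18608864: uaugguaucgagagcaccaccuucucuuuu
DDX6, FAM120A, minus strand, chr11:118748882-118748911: guuuucagaAUGAGaugggagcaucuuucc
GTPBP10, FAM120A, plus strand, chr7:90386512-90386541: cuuauuuuaguaAAGAGagaauaaauagca
ORMDL3, FAM120A, minus strand, chr17:39921911-39921940: uGGGGUAGAGUGuagauggcuugguuccag
FTL, IGF2BP2, plus strand, chr19:48966827-48966856: cuuaacuauccuaacaagccuuggaccaaa
HBG1, IGF2BP2, minus strand, chr11:5248331-5248360: gagcUCACUgcccaugauucagagcUUUCA
HMGA1, IGF2BP2, plus strand, chr6:34245887-34245916: cuucgACAUCCgucauugcugcugcuacca
PPDPF, IGF2BP2, plus strand, chr20:63522050-63522079: aaaaaccagugagagccccgcucucuaccg
BCAT1, both, minus strand, chr12:24817022-24817051: agauauaucccuagagcaggggaccccaac
EEF2, both, minus strand, chr19:3976212-3976241: cuaauuuuaacaaACGCAuuAAGAGguuua
SCD, both, plus strand, chr10:100361936-100361965: uaagauggcuguggcauuuccaaACAUCCa
CBX5, both, minus strand, chr12:54236651-54236680: uugcacccaugauccCAUCAUuuugguuga

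The DDX6 site held 4494, 10230 and 4135 FAM120A reads in replicates 1, 2 and 3. The HMGA1 site held 251, 1014 and 1023 IGF2BP2 reads. At the shared site of EEF2, the translation elongation factor 2 gene, there were 1246, 1839 and 900 reads of FAM120A and 157, 295 and 324 of IGF2BP2. The sequences of SPTY2D1, FTL, PPDPF and BCAT1 have no base in capitals. That of PPDPF holds 5 bases of a 5-mer in favour of FAM120A and that of DDX6 5 bases of one in favour of IGF2BP2, which the capitals do not mark.

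FAM120A sites on mRNAs lay mostly in the 3′ UTR, whereas a larger share of the IGF2BP2 sites lay in the coding sequence. The 3′ UTR held 84.1%, 87.1% and 87.2% of the FAM120A sites on mRNAs in replicates 1, 2 and 3, a mean of 86.1% ± 1.76 (SD, n = 3). For IGF2BP2 the share was 57.4%, 62.7% and 63.7%, a mean of 61.3% ± 3.39 (SD, n = 3). FAM120A was higher in 3 of 3 samples, by 24.8 percentage points ± 1.66 (SD of the 3 differences), and the lowest FAM120A library was above the highest IGF2BP2 library. The exact two-sided sign-flip permutation test gave p = 0.25, which is the smallest value that 3 pairs allow, here and in every such test below.

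**Figure D1:**
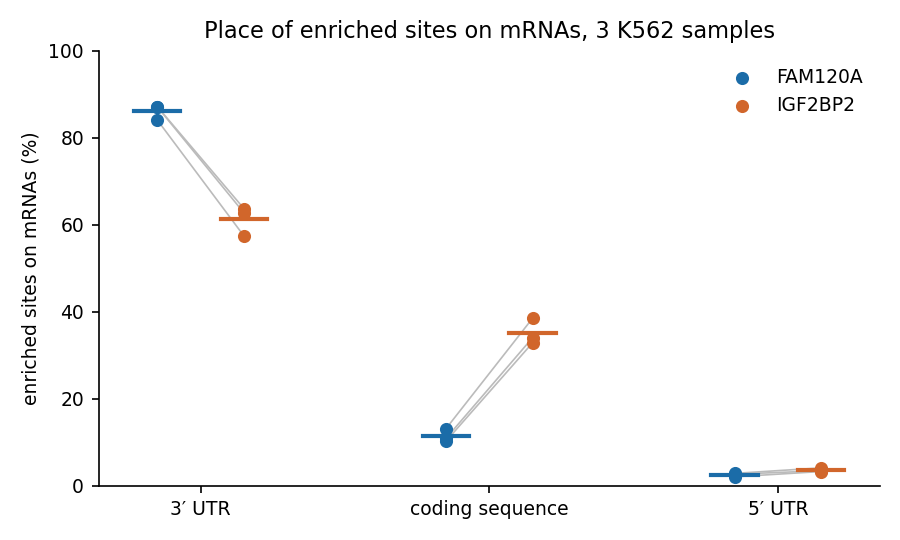
Share of enriched sites on mRNAs (y axis, %) in the 3′ UTR, the coding sequence and the 5′ UTR. Points are the 3 samples, grey lines join the libraries of a sample and bars are means. FAM120A is higher in the 3′ UTR (84.1% to 87.2% against 57.4% to 63.7%) and lower in the coding sequence in each sample.

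The coding sequence held 13.1%, 10.8% and 10.2% of the FAM120A sites and 38.5%, 34.0% and 32.8% of the IGF2BP2 sites. Within the coding sequence both proteins spread widely, with 22.9% to 25.8% of the IGF2BP2 sites and 29.3% to 30.4% of the FAM120A sites in the last 20% of its length. The 5′ UTR held 2.03% to 2.82% of the FAM120A sites and 3.25% to 4.09% of the IGF2BP2 sites. Peak reads were split in the same way. The 3′ UTRs took 65.2%, 73.4% and 68.8% of all FAM120A peak reads and 32.2%, 42.8% and 41.5% of those of IGF2BP2.

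Most 3′ UTRs bound by IGF2BP2 were bound by FAM120A too, while most of those bound by FAM120A lacked an IGF2BP2 site. In replicate 1, 3668 3′ UTRs were bound by FAM120A and 1245 by IGF2BP2, of which 1036 were shared, or 28.2% of the former and 83.2% of the latter. In replicate 2, 1616 of 4224 and 1925 were shared, or 38.3% and 83.9%. In replicate 3, 1639 of 3463 and 2126 were shared, or 47.3% and 77.1%. FAM120A was bound to 3001 3′ UTRs in all 3 samples and IGF2BP2 to 987, of which 827 were the same. The other 2174 of FAM120A and 160 of IGF2BP2 may still hold a site of the other protein in some of the samples.

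**Figure D2:**
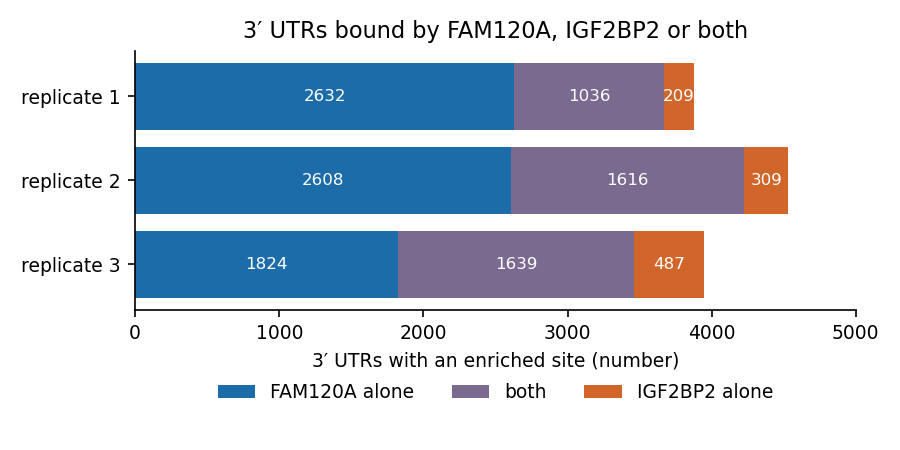
Number of 3′ UTRs with an enriched site (x axis) of FAM120A alone, of both proteins and of IGF2BP2 alone in each sample. IGF2BP2 alone makes up 209 to 487 of them, and FAM120A alone 1824 to 2632.

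The shares changed with the lengths of the lists. With the same number of sites on mRNAs from each library, taken by fold, the shared 3′ UTRs were 56.5% of those of FAM120A and 55.1% of those of IGF2BP2 (means of 3 samples). With the same limit of 60 RPM (peak reads per 1000000 peak reads of the library) in both, chosen after seeing the data, they were 36.0% and 45.7%. A 3′ UTR without an enriched site of the other protein could still hold a peak of it. Of the 3′ UTRs bound by FAM120A alone, 1510 of 2632, 1084 of 2608 and 396 of 1824 had no IGF2BP2 peak of any kind in that sample. Of those bound by IGF2BP2 alone, 111 of 209, 72 of 309 and 192 of 487 had no FAM120A peak.

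FAM120A also held most of the 3′ UTRs of the other 8 proteins of the pool, so that its overlap with IGF2BP2 was within the range seen for them. It was bound to 75.4% to 96.0% of their 3′ UTRs in replicate 1, 77.2% to 95.5% in replicate 2 and 70.8% to 84.5% in replicate 3, against 83.2%, 83.9% and 77.1% for IGF2BP2. Site by site, 65.0%, 65.4% and 54.1% of the IGF2BP2 sites in 3′ UTRs overlapped a FAM120A site by at least 1 base. Over the other 8 proteins the share ran from 44.9% to 88.3% in replicate 1, from 53.0% to 89.0% in replicate 2 and from 39.2% to 76.3% in replicate 3. DDX3, EIF3G and PUM2 were above IGF2BP2 in each sample, and LIN28B, PRPF8 and ZC3H11A below it.

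In the 3′ UTRs bound by both, the strongest sites of the proteins were often apart. The site with most reads of FAM120A and that of IGF2BP2 lay within 50 nt of each other in 35.5%, 27.1% and 25.6% of them. Their median distance was 226, 293.5 and 280 nt. Where they were over 50 nt apart, the IGF2BP2 site was the one nearer the stop codon in 377 of 668, 661 of 1178 and 676 of 1220 3′ UTRs (56.4%, 56.1% and 55.4%). Over all sites in these shared 3′ UTRs, 72.0%, 71.5% and 61.4% of those of IGF2BP2 overlapped a FAM120A site. Of those of FAM120A, 26.5%, 26.8% and 31.3% overlapped an IGF2BP2 site. Sites of 1 protein also differed between samples. Of all IGF2BP2 sites in 3′ UTRs, 66.9% and 72.4% (replicate 1), 35.4% and 62.8% (replicate 2) and 33.0% and 54.5% (replicate 3) overlapped one of IGF2BP2 in the other samples. For FAM120A the shares ran from 52.6% to 81.3%. Whether sites of the 2 proteins lay further apart than those of 1 protein between samples was not tested. FAM120A had more sites per bound 3′ UTR, with means of 4.01, 5.14 and 4.21 against 1.99, 2.45 and 2.54. Per kb of bound 3′ UTR below 250 nt, FAM120A had 6.83, 7.07 and 6.56 sites and IGF2BP2 8.75, 7.22 and 7.51. At 4000 nt and over, FAM120A had 0.980, 1.33 and 1.00 and IGF2BP2 0.376, 0.509 and 0.496. FAM120A libraries also held more peak reads, and the part of depth in these numbers was not tested. CBX5, which encodes the heterochromatin protein HP1 alpha, held the most sites of either protein in every library, 32 to 49 of FAM120A and 23 to 40 of IGF2BP2 on a 3′ UTR of 10813 nt.

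IGF2BP2 sites lay nearer the stop codon. On a scale from 0 at the stop codon to 1 at the annotated end, the median FAM120A site was at 0.420, 0.424 and 0.414 (0.419 ± 0.00514, SD, n = 3). The median IGF2BP2 site was at 0.373, 0.375 and 0.371 (0.373 ± 0.00190, SD, n = 3). The difference of 0.0459 ± 0.00324 (SD) was larger than the spread between samples, and the same way in 3 of 3 (exact sign-flip permutation p = 0.25).

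**Figure D3:**
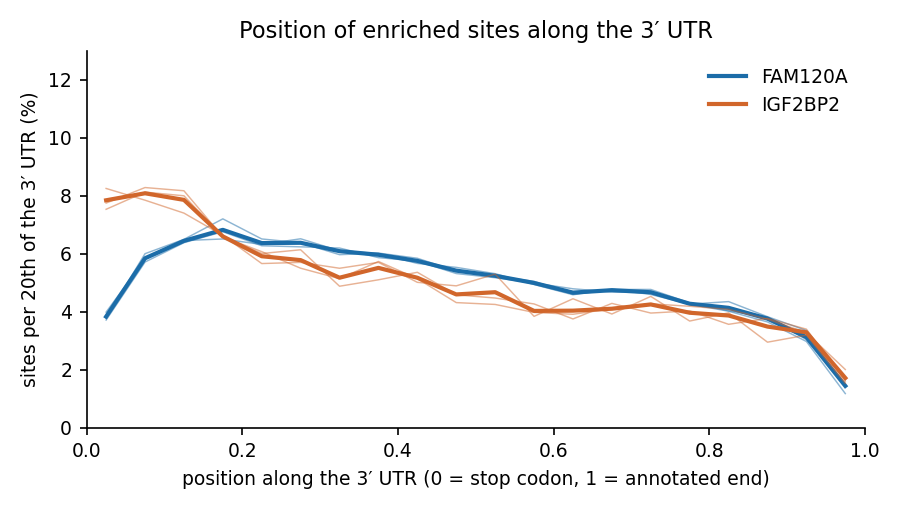
Share of the sites in 3′ UTRs (y axis, %) in each 20th of the 3′ UTR, from the stop codon at 0 to the annotated end at 1 (x axis). Thin lines are the 3 samples and thick lines their means. IGF2BP2 lies above FAM120A near the stop codon and the curves meet towards the end.

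The first 20% of the 3′ UTR held 30.1%, 30.2% and 30.8% of the IGF2BP2 sites and 22.8%, 22.6% and 23.5% of the FAM120A sites. The last 20% held 11.7%, 13.1% and 12.4% of the IGF2BP2 sites and 12.4%, 13.2% and 11.8% of the FAM120A sites, and the proteins overlapped there. The difference at the stop codon was also seen among long 3′ UTRs of similar length. From 2000 nt to below 4000 nt, 12.0% to 13.7% of the IGF2BP2 sites were within 200 nt of the stop codon, against 5.63%, 5.26% and 5.09% of the FAM120A sites. At 4000 nt and over the shares were 8.81%, 7.69% and 8.41% against 3.00%, 2.69% and 3.07%. In the 3′ UTRs bound by both proteins in a sample, the median IGF2BP2 site was at 0.373, 0.373 and 0.371 and the median FAM120A site at 0.425, 0.423 and 0.413, close to the values over all 3′ UTRs. Over the strongest site of each protein in these shared 3′ UTRs, the medians were 0.398, 0.407 and 0.400 for FAM120A and 0.351, 0.343 and 0.343 for IGF2BP2. The median of the differences within a 3′ UTR was 0.00242, 0.00445 and 0.00434, with the pairs within 50 nt of each other included. Below 250 nt the order turned, with medians of 0.485, 0.413 and 0.415 for IGF2BP2 and 0.370, 0.393 and 0.363 for FAM120A.

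IGF2BP2 without FAM120A was found on mRNAs with short 3′ UTRs. The median 3′ UTR bound by IGF2BP2 alone was 437, 601 and 729 nt long in replicates 1, 2 and 3. That of FAM120A alone was 2331, 2288 and 2358.5 nt. The difference was 1736.8 nt ± 139 (SD of 3 pairs), longer for FAM120A in 3 of 3 samples (exact sign-flip permutation p = 0.25). The 3′ UTRs bound by both had medians of 2035.5, 2029.5 and 2126 nt. Those bound by neither but by another protein of the pool had medians of 864.5, 768 and 842 nt. The content of G and C over the whole 3′ UTR was 46.3%, 45.6% and 43.5% for IGF2BP2 alone, 39.5%, 39.2% and 40.1% for FAM120A alone and 40.4%, 39.9% and 39.8% for both (medians).

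The share of annotated 3′ UTRs with a site rose with length for both proteins, and the order of the proteins turned. Below 250 nt, FAM120A was bound to 1.23%, 1.77% and 1.08% and IGF2BP2 to 2.82%, 3.07% and 3.17%. At 4000 nt and over, FAM120A was bound to 38.2%, 42.9% and 36.1% and IGF2BP2 to 10.4%, 15.2% and 18.2%. From 250 nt to below 500 nt the order differed between samples, with FAM120A at 4.66%, 6.67% and 4.73% and IGF2BP2 at 3.67%, 5.79% and 7.22%.

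**Figure D4:**
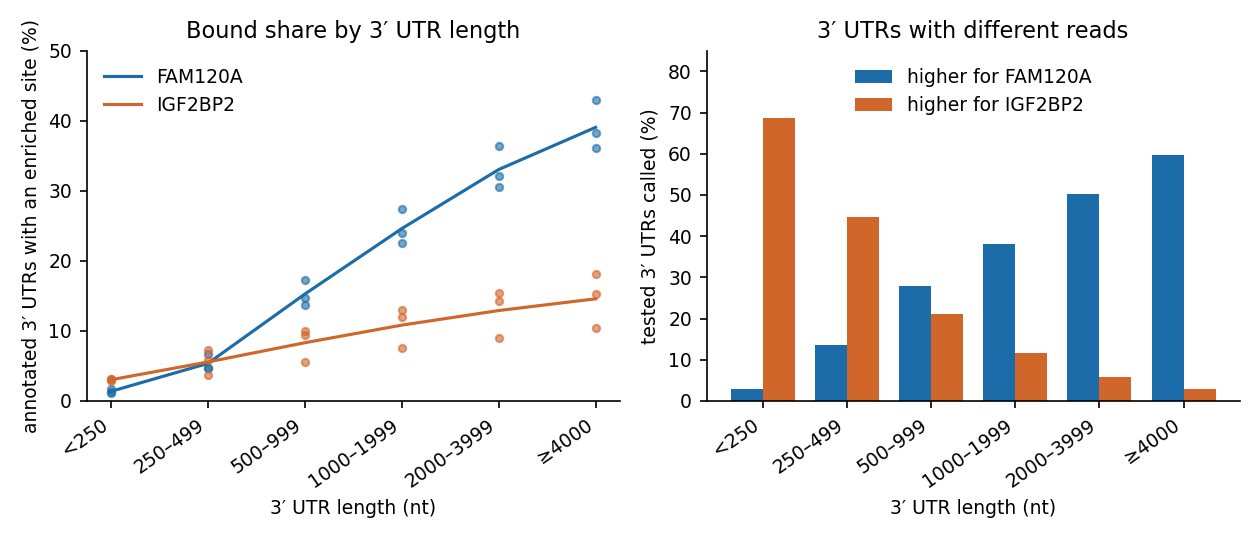
Left, share of all annotated 3′ UTRs of a length class (x axis, nt) with an enriched site (y axis, %), with points for the 3 samples and lines for their means. Right, share of the tested 3′ UTRs (y axis, %) whose peak reads were higher for FAM120A or for IGF2BP2 by limma with sample as a block; IGF2BP2 leads below 500 nt and FAM120A from 500 nt on.

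FAM120A sites held more G and IGF2BP2 sites more C. In 50-nt windows around the centres of the 3′ UTR sites, G made up 21.3%, 21.8% and 21.0% for FAM120A and 18.3%, 19.5% and 17.8% for IGF2BP2, a difference of 2.89 percentage points ± 0.439 (SD of 3 pairs). C made up 22.7%, 21.7% and 23.3% for FAM120A and 26.9%, 25.4% and 25.9% for IGF2BP2, a difference of -3.51 points ± 0.781 (SD). Both differences were the same way in 3 of 3 samples (exact sign-flip permutation p = 0.25 for each). A made up 30.8%, 28.5% and 27.5% for FAM120A and 30.5%, 27.1% and 27.2% for IGF2BP2. It was higher for FAM120A in 3 of 3 samples, by 0.644 points ± 0.611 (SD; exact sign-flip permutation p = 0.25). For U the difference of -0.02 points was within the spread between samples (0.857, SD; exact sign-flip permutation p = 0.75).

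Both proteins' sites were richer in C and poorer in U than windows 200 nt away in the same 3′ UTR, over the sites that have such a window. C was 21.5% to 23.2% at FAM120A sites against 19.4% to 19.5% beside them, and 25.0% to 26.2% at IGF2BP2 sites against 20.2% to 20.5%. U was 25.2% to 28.2% at FAM120A sites against 32.2% to 32.8%, and 24.3% to 29.3% at IGF2BP2 sites against 32.0%. G was 18.1%, 19.4% and 17.6% at IGF2BP2 sites, below the 20.8% to 21.0% beside them in each sample. At FAM120A sites G was 21.1%, 21.7% and 20.8% against 20.6%, 20.5% and 20.8%, higher in replicates 1 and 2 and level in replicate 3.

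The 5-mers that set IGF2BP2 apart were made of C, A and U and shared the dinucleotide CA. limma on the log2 frequency, with sample as a block, called 643 5-mers (62.8% of all) at a Benjamini-Hochberg adjusted p below 0.05, of which 333 (32.5%) were more frequent at FAM120A sites and 310 (30.3%) at IGF2BP2 sites. Without the block 342 were called. All 25 of the 5-mers most in favour of IGF2BP2 held CA, and 24 of the 25 held no G. The leading ones were ACACA and CACAC, with log2 differences, FAM120A minus IGF2BP2, of -1.16 each, then CAUAC (-0.87) and UCAUC (-0.85). The 25 most in favour of FAM120A all held G, 13 of them GG, led by GUGAG (0.85), GGGUG (0.80) and AGGGU (0.80). The 5-mers overlap one another and are not independent, and the fit gave all of them the same standard error. Sites in annotated repeats were kept, and the part of CA repeats in ACACA and CACAC was not tested.

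ACACA made up 7.13 per 1000 5-mers at IGF2BP2 sites and 1.07 beside them, and 3.05 at FAM120A sites and 1.03 beside them (means of 3 samples). It was thus more frequent at the sites of both proteins than beside them, and most frequent at those of IGF2BP2. UCAUC was at 1.41 against 0.890 beside the sites for IGF2BP2, and at 0.735 against 0.828 for FAM120A. For GUGAG the levels were 1.10 at FAM120A sites and 1.06 beside them, and 0.567 at IGF2BP2 sites and 0.960 beside them. Over their own surroundings, 23 of the 25 IGF2BP2 5-mers were more frequent at IGF2BP2 sites in all 3 samples, but only 12 of the 25 FAM120A 5-mers were so at FAM120A sites. Among 5-mers not rare beside the sites, CACAC (3.56 times), CCCCC (3.32) and ACACA (2.97) stood highest over the surroundings at FAM120A sites. At IGF2BP2 sites they were at 7.44, 2.62 and 6.65 times. ACACA or CACAC was in the 50-nt window of 479 of 2472, 647 of 4725 and 801 of 5408 IGF2BP2 sites (13.7% to 19.4%) and of 1621 of 14714, 1940 of 21715 and 1390 of 14574 FAM120A sites. GUGAG or GGGUG was in 5.02%, 6.60% and 5.07% of the IGF2BP2 sites and in 10.2%, 10.6% and 10.2% of the FAM120A sites.

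The reads of each 3′ UTR were compared next, in RPM, here peak reads per 1000000 peak reads of the library. limma on log2(RPM + 10), with sample as a block, tested the 5006 3′ UTRs with at least 30 peak reads summed over the 6 libraries. At an adjusted p below 0.05, 2764 (55.2%) differed, 2162 (43.2%) higher for FAM120A and 602 (12.0%) higher for IGF2BP2. The median difference over all tested was 0.88 on the log2 scale, beside the larger part of the peak reads that 3′ UTRs took in the FAM120A libraries. The median was 1.29 with a pseudocount of 3, 0.48 with one of 30, 1.58 with enriched peaks only and 0.29 over the 7975 3′ UTRs with any peak. With each library centred on the median of 3′ UTRs that have a peak in all 6, the median difference was 0.48, lower by 0.40, and 1571 were higher for FAM120A and 881 for IGF2BP2. In a separate fit to the 2229 3′ UTRs with a peak in all 6 libraries, 902 were higher for FAM120A and 523 for IGF2BP2. Libraries of 1 protein correlated over the tested 3′ UTRs with r between 0.933 and 0.954 for FAM120A and between 0.784 and 0.858 for IGF2BP2, and libraries of different proteins with r between 0.493 and 0.591, as a description across 3′ UTRs.

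**Figure D5:**
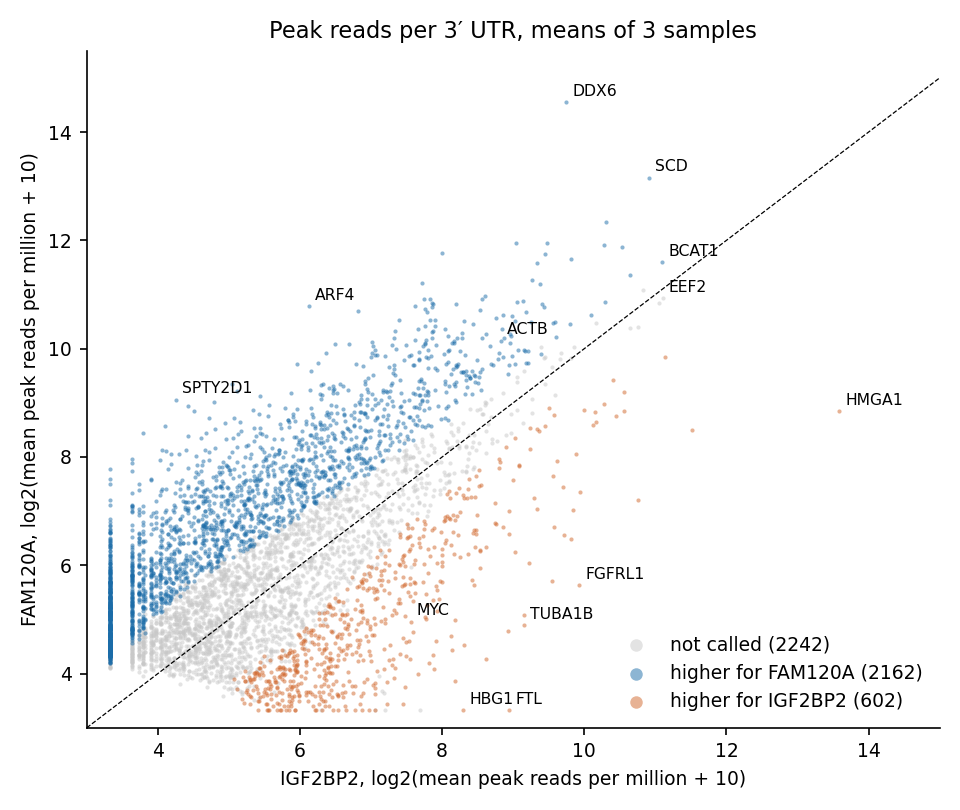
log2(mean RPM + 10) of the 5006 tested 3′ UTRs for IGF2BP2 (x axis) and FAM120A (y axis), as means of 3 samples, with equality as a dashed line. Colours give the limma call. DDX6 stands at the top on the FAM120A side, HMGA1 farthest to the right on the IGF2BP2 side, and EEF2 near the line.

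The 3′ UTR of DDX6, an RNA helicase of P-bodies, held the most reads of any 3′ UTR in each FAM120A library, 2.38%, 2.60% and 2.22% of all its peak reads. Its FAM120A levels were 23846, 25982 and 22176 RPM and its IGF2BP2 levels 746, 1194 and 608. The groups did not overlap, and the difference was 4.86 ± 0.149 (SE, log2), with an adjusted p of 3.21e-08 by limma. FAM120A had 14, 17 and 18 enriched sites there, on a 3′ UTR of 4342 nt on chromosome 11, and IGF2BP2 had 9, 15 and 13, so that both proteins were counted as bound.

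Among the 7 other genes with the largest differences in favour of FAM120A, 6 had no enriched IGF2BP2 site in any sample. SPTY2D1, a histone chaperone gene, was at 512, 560 and 497 RPM for FAM120A, with IGF2BP2 listed at 0 in 2 samples and at 27.1 in the other (log2 difference 5.10, adjusted p = 2.24e-05 by limma). ARF4, which encodes a small GTPase of the Golgi, was at 1517, 1710 and 2027 against 59.4, 58.5 and 61.6 (4.65, adjusted p = 1.09e-06), with 1 enriched IGF2BP2 site in each sample. EMC1, a subunit of the endoplasmic reticulum membrane complex, was at 583, 670 and 661 against 0, 27.3 and 41.9. GTPBP10 (a GTPase of mitochondrial ribosome assembly), ORMDL3 (a regulator of sphingolipid synthesis) and SEMA7A (a membrane-anchored semaphorin) each had differences of 4.55 to 4.74. ZBED6 (4.53) shares exons with ZC3H11A, and reads of these 2 genes cannot be told apart. In all 8 genes every FAM120A library was above every IGF2BP2 library. These genes were chosen for large differences. The libraries of the proteins did not overlap in 2064 of all 2162 3′ UTRs higher for FAM120A, and in 382 of the 2242 not called.

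On the IGF2BP2 side the leading 3′ UTRs were mostly short. FTL, which encodes the ferritin light chain and has a 3′ UTR of 144 nt, was at 429, 484 and 537 RPM for IGF2BP2 and listed at 0 in all 3 FAM120A libraries (adjusted p = 6.63e-06 by limma). HBG1, a gamma globin gene with a 3′ UTR of 90 nt, was at 271, 406 and 236 and also listed at 0 for FAM120A (adjusted p = 2.18e-05). Its near-identical copy HBG2 may share its reads, and its peaks ran over the stop codon into the coding sequence, where FAM120A had 25, 77 and 46 reads. S100A11 (a calcium-binding protein, 156 nt) was at 403, 418 and 333 against 10.9, 8.12 and 9.21. TUBA1B (an alpha tubulin, 176 nt) was at 475, 613 and 586 against 10.9, 20.6 and 27.6, and other alpha tubulin genes may share its reads. PPDPF (327 nt) and PTMS (parathymosin, 510 nt) had log2 differences of -4.40 and -4.19.

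The longer 3′ UTRs in this group were those of HMGA1 and FGFRL1. HMGA1, an architectural chromatin protein gene with a 3′ UTR of 1347 nt, was the 3′ UTR with most reads in each IGF2BP2 library, at 11445, 14061 and 11388 RPM. FAM120A was at 371, 431 and 554 there, and the difference was -4.75 ± 0.160 (SE, log2; adjusted p = 4.27e-08 by limma). IGF2BP2 had 11, 11 and 9 enriched sites on HMGA1 and FAM120A had 7, 9 and 7. FGFRL1, a receptor of fibroblast growth factors that lacks the kinase domain, was at 1182, 1015 and 690 against 44.8, 31.9 and 43.0. In all 8 genes every IGF2BP2 library was above every FAM120A library. The libraries likewise did not overlap in 563 of all 602 3′ UTRs higher for IGF2BP2.

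Some of these mRNAs carried IGF2BP2 in the coding sequence as well. On FTL, coding peaks held 2146, 2092 and 1990 RPM for IGF2BP2 and 137, 129 and 140 for FAM120A. On EEF2 they held 1050, 937 and 517 for IGF2BP2, and FAM120A had no peak there. Across genes bound in the 3′ UTR by FAM120A alone, 8.55%, 8.78% and 10.9% had an IGF2BP2 site in the coding sequence. Of those bound by both, 26.8%, 32.1% and 30.8% did, and of those bound by IGF2BP2 alone, 26.8%, 27.2% and 23.8% did.

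The 8 3′ UTRs with the highest levels of both proteins held BCAT1, EEF2, SCD, CBX5, CANX, FADS1, NUCKS1 and MSN. At EEF2 the levels were 2265, 1689 and 1888 RPM for FAM120A and 2193, 2736 and 1628 for IGF2BP2, and the groups overlapped (-0.14 ± 0.182, SE, log2; adjusted p = 0.515 by limma). CBX5, CANX (calnexin of the endoplasmic reticulum) and MSN (moesin) had differences of -0.21, 0.35 and -0.36, which did not pass the test. When centred, EEF2 (-0.54), CBX5 (-0.61) and MSN (-0.75) passed towards IGF2BP2, with adjusted p of 0.0181, 0.00471 and 0.00302 by limma. CBX5 and MSN also did with enriched peaks only, EEF2 with the reads summed over all peaks and MSN without replicate 3, and CANX passed towards FAM120A without replicate 2 (0.57, adjusted p = 0.0176). BCAT1, a branched-chain amino acid transaminase, was at 3183, 3408 and 2693 against 2133, 2303 and 2091 (0.50, adjusted p = 0.00927), a call lost when centred (0.10, adjusted p = 0.543). SCD, the stearoyl-CoA desaturase, was at 8371, 8166 and 10832 against 1902, 2014 and 1801 (2.24, adjusted p = 4.37e-06). FADS1, a fatty acid desaturase, and NUCKS1, a nuclear phosphoprotein, were higher for FAM120A by 0.72 and 1.35, and the call of FADS1 was lost when centred (0.32, adjusted p = 0.0846). BCAT1 and FADS1 also lost it with enriched peaks only and without replicate 1 (adjusted p = 0.0631 to 0.0912), and SCD, BCAT1, FADS1 and NUCKS1 in the fit over all 30 libraries (0.0871 to 0.508).

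The length of the 3′ UTR went with the direction of the difference. Of 102 tested 3′ UTRs below 250 nt, 70 (68.6%) were higher for IGF2BP2 and 3 for FAM120A. From 250 nt to below 500 nt, 111 of 249 were higher for IGF2BP2 and 34 for FAM120A. From 500 nt to below 1000 nt, 150 and 198 of 711 were so, and from there on the share higher for FAM120A grew, to 636 of 1064 (59.8%) at 4000 nt and over, with 32 (3.01%) higher for IGF2BP2. The median 3′ UTR higher for FAM120A was 2759 nt long, that higher for IGF2BP2 858.5 nt and that not called 1937.5 nt. A longer 3′ UTR can hold more peaks, and the part of length in reaching 30 reads was not tested.

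Gene lists are given by their counts beside the 43.2% higher for FAM120A, the 12.0% higher for IGF2BP2 and the median of 0.88 over all tested 3′ UTRs. Of the microRNA machinery and P-body factors, 34 of 40 had a peak of either protein and 29 were tested. Of these, 18 were higher for FAM120A and 0 for IGF2BP2, with a median of 1.18 on the log2 scale. Their median 3′ UTR was 2817 nt long, against 2125.5 nt over all tested. Over all tested 3′ UTRs from 2000 nt to below 4000 nt, 50.3% were higher for FAM120A and 5.70% for IGF2BP2 (median 1.07). Besides DDX6, AGO2, the Argonaute that cleaves targets, was at 1235, 1275 and 1232 RPM against 139, 379 and 387 (2.15, adjusted p = 1.99e-04 by limma). DCP2, the decapping enzyme, was at 720, 964 and 844 against 588, 597 and 557 (0.52, adjusted p = 0.0346), a call lost when centred (0.12, adjusted p = 0.625).

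The ribosomal protein and respiratory chain lists had medians below 0, towards IGF2BP2, and few of their members could be tested. Of the cytoplasmic ribosomal protein genes, 37 of 87 with a 3′ UTR had a peak and 20 were tested, 8 higher for IGF2BP2 and 5 for FAM120A (median -0.79). RPL22 was higher for FAM120A (1.47), and RPL15 was at -0.59 (adjusted p = 0.0563), which passed when centred (-0.99, adjusted p = 0.00537). RPL7L1, an RPL7-like gene that the list holds by its symbol, was also higher for FAM120A (1.11). Of the nuclear-encoded respiratory chain genes, 34 of 98 were tested, 16 higher for IGF2BP2 and 9 for FAM120A (median -0.12). ATP5MF, an ATP synthase subunit with a 3′ UTR of 132 nt, was at 238, 285 and 320 for IGF2BP2 against 27.2, 11.9 and 26.1 (-3.23, adjusted p = 9.62e-05). ATP5MC3, another subunit with 2030 nt, was higher for FAM120A (2.42). With at least 100 summed reads both medians turned, to 1.02 and 1.01.

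Of the replication-dependent histones, 13 of 70 were tested, 5 (38.5%) higher for IGF2BP2 and 0 for FAM120A (median -1.95). Their median 3′ UTR was 62 nt long. Over all tested 3′ UTRs below 250 nt, 68.6% were higher for IGF2BP2 (median -1.88). H4C8 was at 258, 46.8 and 41.9 for IGF2BP2 and listed at 0 for FAM120A. Without replicate 1 the median over the tested histones was 0.00. Histone copies are near-identical and may share reads. Of the actins and tubulins, 7 of 23 were tested, 3 higher for IGF2BP2 and 1 for FAM120A (median -0.84). TUBB was at 1836, 2353 and 2517 for IGF2BP2 and 776, 965 and 991 for FAM120A (-1.28). ACTB, the beta-actin gene, was higher for FAM120A in the 3′ UTR, at 1171, 936 and 1263 against 198, 605 and 532 (1.45, adjusted p = 0.00286). Its coding sequence was at 1043, 1198 and 1059 for IGF2BP2 and 371, 326 and 787 for FAM120A, ranges that did not overlap and were not tested.

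Known targets of the IGF2BP family did not go one way. Of 20, 14 were tested, 7 higher for FAM120A and 5 for IGF2BP2 (median 0.98). HMGA1 was among those higher for IGF2BP2, and PABPC1, the cytoplasmic poly(A)-binding protein gene, was at 2701, 1151 and 1298 against 186, 106 and 123 (-3.47, adjusted p = 4.37e-06). MYC was at 119, 168 and 249 for IGF2BP2 and 14.9, 22.5 and 26.1 for FAM120A (-2.55, adjusted p = 4.76e-04). IGF2BP1 was higher for FAM120A, at 2449, 2226 and 2705 against 475, 609 and 734 (2.02). IGF2 held no peak of either protein in its 3′ UTR in any sample. Of the let-7 targets, which share IGF2BP1 with that list, 20 of 24 were tested, 8 higher for FAM120A and 2 for IGF2BP2 (median 0.60). CDK6 was at 0.89 in favour of FAM120A, and HIC2 at 0.27 (adjusted p = 0.211).

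Genes of RNA processing and translation lay near the values over all 3′ UTRs. Of the SR and hnRNP proteins, 13 of 30 were higher for FAM120A and 4 for IGF2BP2 (median 0.78). SRSF1, a splicing factor, was at 2824, 3280 and 4364 against 330, 191 and 219 (3.78), and HNRNPD and HNRNPK were at 2.65 and 2.13. Of the translation initiation factors, 13 of 34 were higher for FAM120A and 5 for IGF2BP2 (median 0.65), with EIF4B at 2.91, EIF2S3 at 1.82 and EIF5A at 1.27. Of the 10 mRNAs of the profiled proteins, 7 were tested and 3 were higher for FAM120A. FAM120A's own mRNA was at 211, 237 and 287 against 79.2, 78.1 and 118 (1.33, adjusted p = 0.00313). That of IGF2BP2 was at 186, 144 and 132 against 125, 78.1 and 165, and the groups overlapped (0.35, adjusted p = 0.376).

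The median 3′ UTR over all tested was 2125.5 nt long, and that of the ZNF zinc finger genes 3064 nt. The other families here were nearer to it, at 2376 nt (chromatin regulators), 2374 nt (ubiquitin ligases and proteases) and 2610 nt (solute carriers). Of the ZNF genes, 97 of 505 were tested, 39 higher for FAM120A and 5 for IGF2BP2 (median 0.98), with ZNF24 at 1.34 and ZNF385A at -0.87. Of the chromatin regulators, 22 of 56 were higher for FAM120A and 4 for IGF2BP2 (median 0.61). Of the ubiquitin ligases and proteases, 59 of 133 were higher for FAM120A and 12 for IGF2BP2 (median 0.94). Of the solute carriers, 46 of 93 were higher for FAM120A and 14 for IGF2BP2 (median 1.02). SLC38A2, an amino acid transporter, was at 2180, 1978 and 1594 against 192, 269 and 155 (3.18), while SLC38A1 was at 0.39 (adjusted p = 0.0806).

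Paralogs within a family could go opposite ways. Of the small GTPases, 30 of 68 were higher for FAM120A and 13 for IGF2BP2 (median 0.83). ARF4 was at 4.65, while ARF1 was higher for IGF2BP2, at 1209, 1526 and 1315 against 572, 620 and 833 (adjusted p = 0.00151). RAB7A, a GTPase of late endosomes, was at 2107, 1190 and 1205 against 465, 418 and 467 (-1.66). Of the endoplasmic reticulum chaperones and translocon, 10 of 30 were higher for FAM120A and 6 for IGF2BP2 (median 0.21), with SPCS3, a signal peptidase subunit, at 2.50. Of the heat shock proteins and J-domain chaperones, 15 of 39 were higher for FAM120A and 6 for IGF2BP2 (median 0.73), of the MAP kinase cascade 9 and 4 of 20 (median 0.95), and of the cyclins and cell-cycle kinases 8 and 5 of 26 (median 0.39). CCND2, a cyclin of the G1 phase, was at 539, 861 and 528 against 475, 886 and 702, with overlapping groups (-0.09, adjusted p = 0.715).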

How the data were processed

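The FAM120A and IGF2BP2 libraries of the 3 10plex K562 samples were compared, paired by sample. The authors trimmed reads with cutadapt 2.8 and aligned them to GRCh38 with STAR 2.7.6 (versions from the submitters' notes), removed PCR duplicates by molecular identifier and called peaks per library with CLIPper. The deposited tables give a p-value by CLIPper for the peaks, and for merged peaks the −log10 P and the log2 fold over external RNA-seq. The deposited values of the comparison with the other barcodes of the pool were not used.

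Reads per peak came from the peak names (replicates 1 and 3) or were recovered from the deposited log2 fold and −log10 P (replicate 2). Where both exist they were equal in 99.1% to 99.3% of the peaks of these proteins. Numbers are of peaks, not of whole libraries, so no count model was used. Sites were placed by the centre of the peak with most reads on the representative transcript of GENCODE release 44, with the coding sequence before the 3′ UTR. Base composition used 50-nt windows, beside windows 200 nt away without a site of that library. Paired values were tested with exact two-sided sign flips. Reads per 3′ UTR (pseudocount 10, at least 30 summed reads) and 5-mers (pseudocount 0.1 per 1000) were fitted with limma 3.58.1 in R 4.3.3, with Benjamini-Hochberg adjustment, tested on simulated data. The sample is a block because both libraries share a lysate and tube. Deviations of the paired libraries from their protein's means correlated with r = 0.116, 0.0658 and 0.107. Labels do not say whether samples are separate cultures, so p-values measure the spread between these samples. For the 5-mers the fit used 1 spread pooled over all of them, so their p-values do not measure the spread of each 5-mer.

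Named genes were, for each direction, the 8 largest differences at an adjusted p below 0.05 with a site of the higher protein in all 3 samples, the 8 highest levels of both, up to 3 members of highest level per list, and 6 fixed genes. The comparison, members and 19 gene lists were chosen with earlier results of these data known. Alternatives were other limits, list lengths, joining, transcripts, windows, pseudocounts, filters, scalings, samples in the fit, no block, sites near an adapter-like sequence left out and each sample left out. A limit of 60 RPM (peak reads per 1000000) was added after seeing the data.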

Additional observations from a re-analysis of the deposited data

How the results depend on the processing

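The 3′ UTR share, position, length, A, C and G kept their direction in every alternative run. The difference in U turned to 0.23 (stricter limits), 0.14 (equal list length), 0.66 (same RPM), 0.17 (every peak by itself), 0.21 (100-nt window) and, leaving out 1 replicate, -0.45 to 0.41. The share of IGF2BP2's 3′ UTRs that FAM120A also bound moved from 81.4% to 86.5% (no limit), 55.1% (equal length) and 45.7% (same RPM). That of FAM120A's moved from 37.9% to 59.8% (no limit) and 56.5% (equal length).

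Against 2764 3′ UTRs with different reads, a separate fit to the 2229 with a peak in all 6 libraries called 1425, of which 902 were higher for FAM120A. The 602 higher for IGF2BP2 became 341 with at least 100 summed reads, 348 with enriched peaks only and 379 to 614 leaving out 1 replicate, the lowest without replicate 3. Without the replicate block, 2585 3′ UTRs and 342 5-mers were called, 183 5-mers for FAM120A and 159 for IGF2BP2, against 643 in the paired fit. The cause was not tested.

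Medians of gene lists that turned were those of the ribosomal proteins (1.02, at least 100 reads), the initiation factors (-0.28, a peak in all 6) and the respiratory chain. The last was 0.052 with pseudocount 3, 1.01 with at least 100 reads, 0.79 with a peak in all 6, 0.31 with enriched peaks only and -0.56 to 0.073 leaving out 1 replicate, highest without replicate 2. Others were the cyclins (-0.0031, centred), the chromatin regulators (-0.075, a peak in all 6), the endoplasmic reticulum (-0.19, centred) and, leaving out 1 replicate, the endoplasmic reticulum (-0.15 to 0.32) and the histones (-2.88 to 0.00), both reaching the value that turned without replicate 1. Single genes that turned had not passed the test: leaving out 1 replicate, EEF2 (-0.32 to 0.13, turned without replicate 2), CCND2 (-0.22 to 0.069, without replicate 3), ARID3A (-0.48 to 0.055, without replicate 1) and HSP90AA1 (-0.39 to 0.42, without replicate 1), and otherwise CANX (-0.047), HIC2 (-0.12), CCNG1 (-0.050), SLC38A1 (-0.0022), HSPA5 (-0.17), HSP90AA1 (-0.29) and IGF2BP2 (-0.049) when centred, and HSPA5 (-0.065) and HSP90AA1 (-0.17) with enriched peaks only. Of 76 named genes, 39 kept direction and call in every alternative. Calls of named genes were lost in the fit over all 30 libraries (20 genes), when centred (7), with enriched peaks only (6), without the replicate block (1, ZNF385A) and without replicate 1 (3), 2 (3) or 3 (6). They were gained when centred (5), over all peaks (4), with enriched peaks only (3) and without replicate 2 (2) or 3 (1), and RPL15 also with pseudocount 30, at least 100 reads or a peak in all 6. Those lost in the fit over all 30 libraries included IGF2BP1, CDK6, EIF2S3, EIF5A, TUBB, ACTB, ARF1 and FAM120A, beside those named in the report. RPL22 lost its call without replicate 3 (1.15), DCP2 without replicate 2 (0.44) or 3 (0.49), ZNF385A without replicate 1 (-0.56) or 3 (-0.97) and ACTB with enriched peaks only (1.16). IGF2BP2 had fewer peak reads in each sample, and the part of depth was not tested.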
